A study of Mus musculus with 3 samples.

Results

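Store-operated calcium entry was followed through 10 genes chosen by symbol: the sensors Stim1 and Stim2, the channel subunits Orai1, Orai2 and Orai3, the EF-hand regulators Cracr2a and Cracr2b, and the receptors Itpr1, Itpr2 and Itpr3. Of these, 8 had a probe set among the 19505 genes measured, each with 1 probe set, and 7 lay at or above the background level. The levels of Itpr1 and Itpr3 were not analysed here. The 10 genes were proposed with earlier values of these same 3 arrays in view, so their levels and differences are a description and carry no test.

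The cells were plasmacytoid dendritic cells, the dendritic cells that release large amounts of type I interferon, grown from the marrow of wild-type BALB/c males 4 to 5 weeks old. The culture ran for 6 to 9 days in medium holding 100 ng/mL of Flt3 ligand. CpG oligodeoxynucleotides, which engage TLR9, then matured the cells, and the mature cells were sorted. There were 3 groups of 1 array each: control cells, cells treated with astragaloside IV (a saponin from Astragalus) and cells treated with oxymatrine (an alkaloid from Sophora). Each compound was given for 12 h, and CCL21, a chemokine that binds CCR7, followed for 1 h. The study asked how these compounds hold back the migration of the cells. The labels give no doses and do not say if CCL21 or a vehicle was added to the controls, so compound and CCL21 cannot be told apart in a difference from control. The number of mice behind each array is not stated. With no replicates, a single array stands for each group and no error can be given for any difference.

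Store-operated calcium entry refills the calcium stores of the endoplasmic reticulum. A chemokine receptor such as CCR7 activates phospholipase C, which makes inositol trisphosphate (IP3), and IP3 opens the IP3 receptors encoded by the Itpr genes, so that calcium leaves the reticulum. The STIM proteins sense the emptied store, gather where the reticulum meets the plasma membrane, and open the ORAI channels there. The calcium that enters acts through calmodulin and calcineurin on NFAT transcription factors, and in leukocytes it also feeds into the machinery of migration.

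The regions before the transcription start of these genes are shown because they share a feature that had no part in the choice of the genes. RefSeq start regions (build GRCm38.p6) were matched for 8 of the 10 genes, 7 of them among the 8 measured. Cracr2b and Itpr1 had no matched region, and Itpr3 had a region but no level here. In each of the 8, the 250 bases before the start held the GC box GGGCGG at least once on either strand. It was found in 32.7% of all 32851 regions of that length, and in 55.4% of the 11027 regions of genes above background on these arrays. Of the members above background, 6 had a matched region, and 6 of these held it. The GC box was the only one of the motifs counted here that all 8 regions held. The sensors, the main channel gene and the channel gene with the lowest GC content of the 8 are printed 5′ to 3′ on the gene's own strand, with the GC box or its reverse complement in capitals. Stim1 lies at chr7:102267569-102267818 on the plus strand, Stim2 at chr5:53998273-53998522 on the plus strand, Orai1 at chr5:123014824-123015073 on the plus strand and Orai3 at chr7:127769565-127769814 on the plus strand.
Stim1: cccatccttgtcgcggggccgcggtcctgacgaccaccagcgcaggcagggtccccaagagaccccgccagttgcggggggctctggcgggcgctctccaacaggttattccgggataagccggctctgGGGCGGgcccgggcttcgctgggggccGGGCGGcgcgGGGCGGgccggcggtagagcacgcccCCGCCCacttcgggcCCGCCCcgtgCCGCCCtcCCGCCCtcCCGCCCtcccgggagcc
Stim2: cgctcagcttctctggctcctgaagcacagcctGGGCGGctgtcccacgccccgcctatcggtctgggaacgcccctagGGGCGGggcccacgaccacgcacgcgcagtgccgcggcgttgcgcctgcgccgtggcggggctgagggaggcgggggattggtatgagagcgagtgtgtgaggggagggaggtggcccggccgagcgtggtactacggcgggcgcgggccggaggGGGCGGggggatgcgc
Orai1: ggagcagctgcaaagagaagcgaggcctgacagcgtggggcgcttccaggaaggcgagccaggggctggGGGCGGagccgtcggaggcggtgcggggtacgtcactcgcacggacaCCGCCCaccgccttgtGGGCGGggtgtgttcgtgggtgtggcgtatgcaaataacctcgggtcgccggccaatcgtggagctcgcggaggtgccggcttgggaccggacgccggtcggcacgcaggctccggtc
Orai3: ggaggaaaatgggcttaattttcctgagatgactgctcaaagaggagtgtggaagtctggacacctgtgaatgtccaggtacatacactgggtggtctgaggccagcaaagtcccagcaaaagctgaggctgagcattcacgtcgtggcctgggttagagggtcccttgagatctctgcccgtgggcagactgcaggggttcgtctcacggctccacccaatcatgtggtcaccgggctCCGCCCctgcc

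The Stim1 region had the highest GC content of the 8, 78.4%, and 8 GC boxes, whereas Orai3 had 57.2% and 1 GC box. The median GC content was 52.4% over all regions and 59.2% over those of genes above background. The ratio of observed to expected CpG was 0.81 for Stim1, 0.90 for Stim2, 1.00 for Orai1 and 0.34 for Orai3, beside a median of 0.71 over the regions of genes above background. The TATA box TATAAA, read on both strands, was in 0 of the 8, in 12.4% of all regions and in 7.23% of those of genes above background. The core GGAAA, which NFAT proteins can bind, was in 2 of the 8 (Orai2 and Orai3), in 55.6% of all regions and in 54.3% of those of genes above background. The E-box CACGTG was in 2 of the 8 (Orai2 and Itpr3), in 6.02% of all regions and in 8.36% of those of genes above background. The CCAAT box CCAAT was in 4 of the 8, in 33.9% and in 35.5% in turn. Both were read on both strands. These matches describe the letters in the window and do not show binding.

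The arrays carried plasmacytoid dendritic cell transcripts, with 17 of 18 measured markers of this lineage above the background level of 5.28 in each array. It was set from 1412 receptor genes of smell and pheromone sensing, genes that blood cells do not normally use, 95% of which lay at or below it by their mean. Of markers of other cells, 10 of 10 for monocytes and macrophages, 9 of 12 for conventional dendritic cells, 6 of 12 for T and NK cells, 4 of 9 for B and plasma cells, 3 of 13 for neutrophils and 2 of 8 for mast and erythroid cells were above it by their mean over the 3 arrays. Over all measured markers of a list, below background included, the mean level differed between arrays by 0.19 or less on the log2 scale in every one of these lists. Single markers differed by more, those of the sorted lineage included. Under oxymatrine Ptprs differed by -0.55, Spib by -0.48 and Ccr9 by -0.32, and under astragaloside IV by -0.18, 0 and -0.27. As deposited, 11 of the 17 plasmacytoid genes past background lay under control with oxymatrine and 3 over it. With astragaloside IV the split was 8 to 2. After lowess centring, a scaling used below, it was 6 to 11 with oxymatrine and 8 to 9 with astragaloside IV. All 3 neutrophil markers above background were lower under astragaloside IV, Csf3r by a difference of -0.49, Lcn2 by -0.51 and Mmp8 by -0.26. Under oxymatrine they differed by -0.10, -0.27 and 0. The other 10 measured neutrophil markers were below background by their mean, with differences in both directions. Among these, with astragaloside IV and oxymatrine, Elane differed by 0.30 and 0.97, Cxcr2 by -0.10 and 0.84, and S100a8 by -0.81 and -0.68. Il2rb, a receptor chain of T and NK cells, differed by -1.01 and -0.84 in turn. Itgae of conventional dendritic cells differed by -0.73 and -0.49, and Car2 of the erythroid list by -0.42 and -0.11. Cd4 of the T and NK list went the other way, by 0.24 and 0.23. With each compound, 3 of the 6 T and NK genes past background lay under control and 1 over it. The other 6 of that list, Cd3d, Cd3e, Cd3g, Ncr1, Klrb1c and Nkg7, were below background in each array. The 9 conventional dendritic cell genes split 3 under to 3 over with astragaloside IV, and 5 to 2 with oxymatrine. In the monocyte list C1qa differed by -0.51 and -0.11, and Mertk by -0.27 and -0.45. C1qb of the same list differed by 0 and 0, C1qc by -0.0095 and 0, and Ly6c1 by 0.095 and 0.27. That list split 4 to 3, and 3 to 1. The single markers were named after their values had been seen, and several of their differences exceed those of Stim2 and Itpr2 given below. The Il2rb difference of -1.01 under astragaloside IV is also larger in size than the largest member difference, 0.85 for Cracr2b under oxymatrine. The part of other cell types in any difference below was not tested. In bulk RNA, a change in the share of a cell type and a change in RNA per cell cannot be told apart. Exonic control probe sets had a mean difference from control of -0.04 under astragaloside IV and -0.13 under oxymatrine, and intronic ones of 0.16 and 0.15. The part of RNA quality was not tested.

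Cracr2b was the member that stood apart, and it was higher in the oxymatrine array. It encodes an EF-hand protein, the less studied relative of CRACR2A, and CRACR2A binds ORAI1 and STIM1 and stabilises their complex. The level of Cracr2b was 10.70 in control, 10.88 under astragaloside IV and 11.55 under oxymatrine, on the deposited log2 scale. The oxymatrine array was thus well above the other two, while the astragaloside IV array lay close to control. The difference from control was 0.85 under oxymatrine, or 1.81-fold, and 0.18 under astragaloside IV, or 1.13-fold. Between the treated arrays it was 0.67 higher under oxymatrine, or 1.59-fold.

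The difference of Cracr2b can be set beside those of genes of similar brightness. Over the genes in its level bin, 1 of 20 of equal size, the SD of the oxymatrine difference was 0.18, so Cracr2b lay 4.81 times that SD above 0. With astragaloside IV the SD was 0.14, and Cracr2b lay 1.27 times that SD above 0. These SDs describe how far different genes lay apart and are not replicate errors. Among the 10671 genes above background, 25 including Cracr2b were at least this much higher under oxymatrine, and 1027 were at least as much higher as Cracr2b under astragaloside IV.

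Cracr2a, the better known relative of Cracr2b, has a long isoform that joins the EF-hand part to a Rab GTPase. It was at 5.97 in control, 5.96 under astragaloside IV and 5.97 under oxymatrine. All 3 arrays were therefore nearly level, and all were within 0.69 of the background level. The difference from control was -0.0028 under astragaloside IV and 0 under oxymatrine. The EF-hand relatives thus had unlike profiles, Cracr2b with a range of 0.85 over the 3 arrays and Cracr2a with a range of 0.0028. The values belong to different probe sets, so their levels cannot be ranked.

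**Figure D1:**
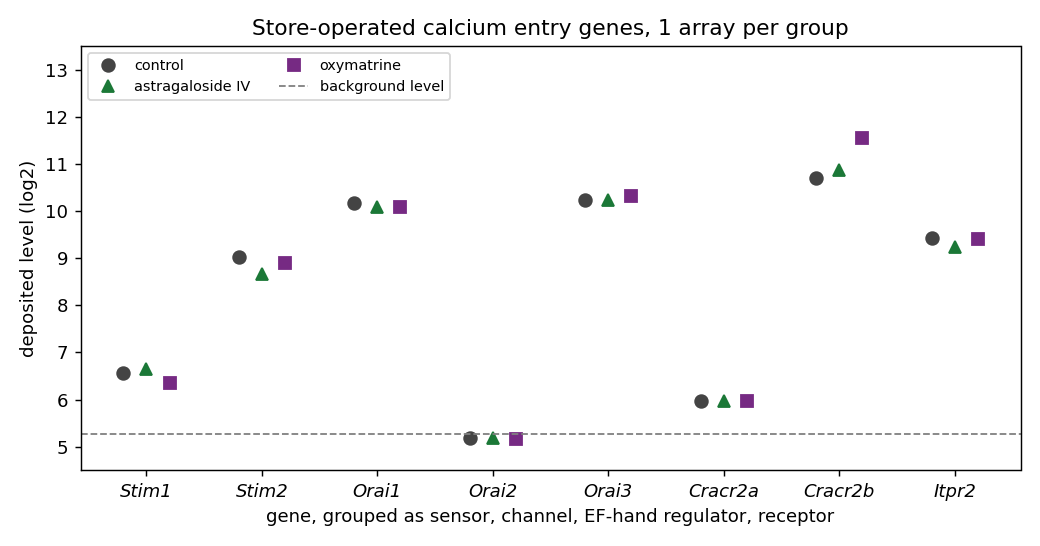
Deposited log2 level (vertical axis) of the 8 measured store-operated calcium entry genes (horizontal axis) in the control (circle), astragaloside IV (triangle) and oxymatrine (square) arrays, 1 array per group with no error bars; the dashed line is the background level of 5.28. Cracr2b is at 11.55 under oxymatrine against 10.70 in control, and Orai2 lies below the line in all 3 arrays; levels of different genes come from different probe sets and are not to be ranked.

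Stim2 was the member with the largest difference from control in the astragaloside IV array. STIM2 is the calcium sensor that responds to small losses from the store and helps to keep resting calcium steady. The level of Stim2 was 9.02 in control, 8.67 under astragaloside IV and 8.90 under oxymatrine, so that control was highest and the astragaloside IV array lowest. The difference from control was -0.35 under astragaloside IV, a 1.28-fold lower level, and -0.13 under oxymatrine, a 1.09-fold lower one. The first of these was -1.87 times the SD in its level bin, and 554 of 10671 genes were at least as low in that comparison.

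Stim1, the sensor that drives most store-operated entry in lymphocytes, had another order of arrays. It was at 6.56 in control, 6.65 under astragaloside IV and 6.35 under oxymatrine, which puts the oxymatrine array lowest. The difference from control was 0.09 under astragaloside IV and -0.21 under oxymatrine, or 0.34 and -0.75 times the SD in its level bin. Between the treated arrays the sensors stood on opposite sides. Stim1 was lower under oxymatrine by a difference of -0.29, and Stim2 was higher by 0.23. Both were within 1.15 times the SD in their level bins.

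The channel subunits differed little. ORAI1 forms the pore of the calcium release-activated channel, and Orai1 was at 10.16 in control and 10.08 in each treated array, a difference of -0.07 from control. Orai3, which encodes a relative found in mammals, was at 10.23 in control and under astragaloside IV and at 10.32 under oxymatrine, a difference of 0.09. The treated arrays were thus equal for Orai1, and control and astragaloside IV were equal for Orai3. Exact ties of this kind were frequent in these data: 27.7% of genes above background had equal values in control and astragaloside IV, and 24.4% in control and oxymatrine. Orai2, whose protein can join ORAI1 and dampen the current, was below background in all 3 arrays, at 5.19 in control and under astragaloside IV and 5.17 under oxymatrine. Its probe set gave no level well apart from that of silent genes, and no fold is drawn from it.

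Itpr2 was the only IP3 receptor gene with a measured probe set. It encodes a receptor that releases store calcium at low IP3. Its level was 9.44 in control, 9.22 under astragaloside IV and 9.41 under oxymatrine. Control and oxymatrine were close together and astragaloside IV was lower, by a difference of -0.21 from control, or -1.19 times the SD in its level bin. The difference under oxymatrine was -0.03. Stim2 and Itpr2 thus both had their lowest value under astragaloside IV, as did Cracr2a by 0.0028. Orai1 and Orai3 shared their lowest value between that array and another. The share of all genes lowest in that array was not counted, so nothing is read from this likeness. The order of the treated arrays for Cracr2a also changed with the scaling.

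Counted by size, with 1.5-fold (0.58 on the log2 scale) taken as the threshold, 0 of the 7 members above background were apart under astragaloside IV, where 2.13% of all 10671 genes were. With oxymatrine 1 of 7 was, Cracr2b, against 3.31% of all genes in either direction and 1.3% on the higher side. Between the treated arrays 1 of 7 was apart, again Cracr2b, against 2.58% of all genes. At 2-fold, 0 of 7 members were apart in each comparison, where 0.197% of all genes were under astragaloside IV, 0.281% under oxymatrine and 0.159% between the treated arrays. Since the members were chosen with these differences known, nothing is read from their counts against those shares.

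By direction, 4 members were lower, 2 higher and 1 equal under astragaloside IV, with a median difference of -0.0028. Of the whole set above background 40.8% had a lower value, 31.4% a higher and 27.7% an equal one, and the median was 0. With oxymatrine 4 members were lower, 2 higher and 1 equal, with a median of -0.03, beside 46.0% lower, 29.7% higher and 24.4% equal over all genes, with a median of 0. Between the treated arrays 5 members were higher under oxymatrine, 1 lower and 1 equal, with a median of 0.09, beside 40.7% lower, 32.5% higher and 26.7% equal over all genes, with a median of 0. After median centring 4 members were higher and 3 lower in that comparison. Both comparisons with control use the same control array, so a shared direction in them does not count as a repeat.

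**Figure D2:**
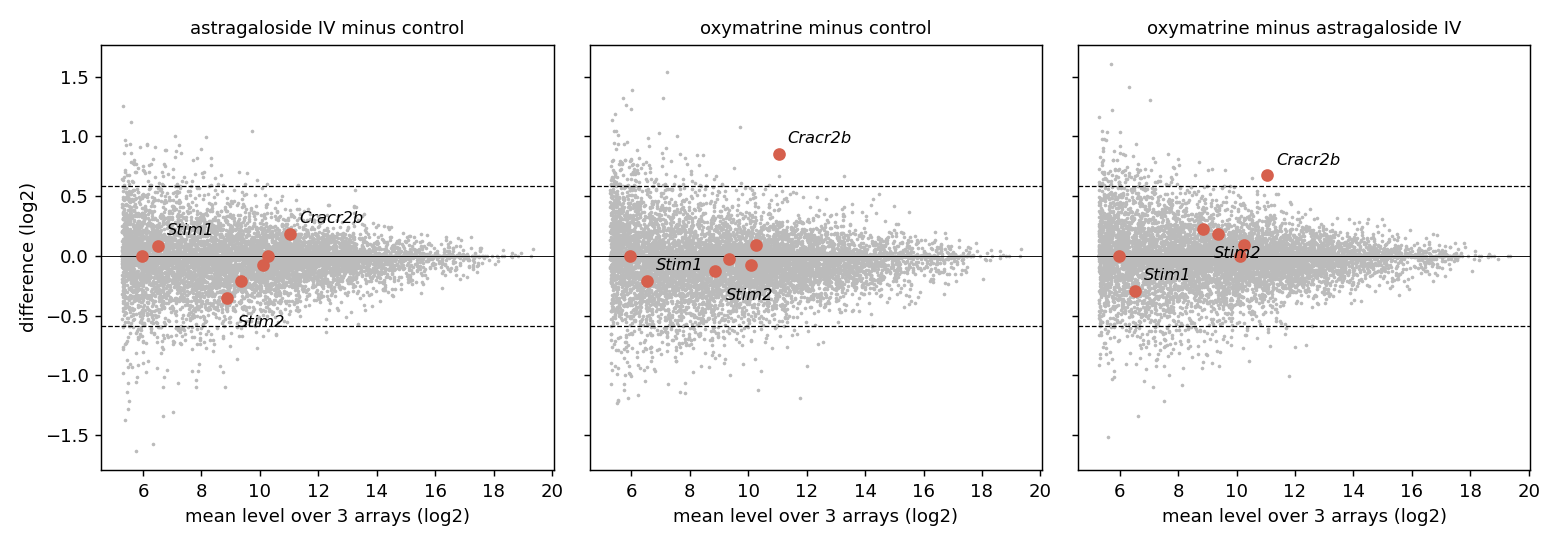
Log2 difference between 2 arrays (vertical axis) against the mean log2 level over the 3 arrays (horizontal axis) for the 10671 genes above background (grey points) and the 7 members above background (red points), in panels for the 3 comparisons; dashed lines mark 1.5-fold. Cracr2b lies above the upper line at 0.85 under oxymatrine against control and at 0.67 between the treated arrays, and the other members lie between the lines.

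The larger differences kept their sign under other scalings, which could hardly have turned it. Median centring adds the same constant to every gene in a comparison. Lowess centring and quantile normalisation also moved the members little. The kept sign is therefore no check of these differences, and the ranges only show the effect of scaling. The oxymatrine difference of Cracr2b ranged from 0.79 to 0.90 over the deposited values, centring on the array median, quantile normalisation and lowess centring. Over the same scalings the astragaloside IV difference of Stim2 ranged from -0.41 to -0.34, that of Itpr2 from -0.27 to -0.20, and the oxymatrine difference of Stim1 from -0.27 to -0.20. The sign was not stable for Orai3 under astragaloside IV, from -0.06 to 0.02, and for Itpr2 under oxymatrine, from -0.09 to 0.01. Between the treated arrays it was not stable for Orai1 and Cracr2a, whose differences stayed within 0.04 of 0.

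**Figure D3:**
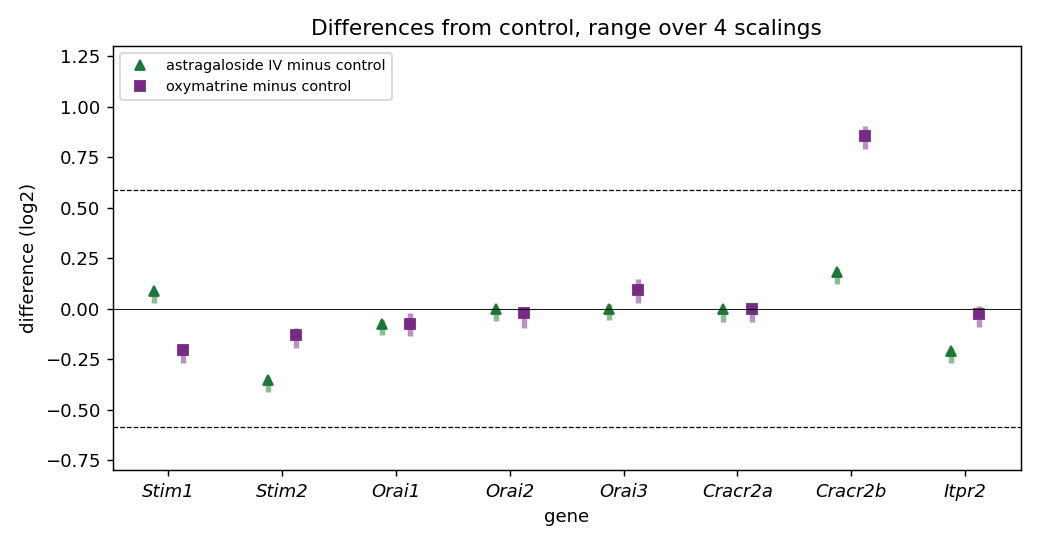
Log2 difference from control (vertical axis) of each measured member (horizontal axis) under astragaloside IV (triangles) and oxymatrine (squares) as deposited; bars span the lowest to the highest of 4 scalings and are not replicate errors, and dashed lines mark 1.5-fold. The oxymatrine bar of Cracr2b runs from 0.79 to 0.90, above the upper line, and the other bars lie between the lines. The scalings move values little, so short bars are no sign of precision.

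Genes on both sides of Cracr2b on its chromosome were looked up after its value had been seen, with protein-coding genes only. The nearest ones did not overlap its gene model, and the 3 that were measured had oxymatrine differences between -0.51 and 0.19. Pnpla2, which encodes adipose triglyceride lipase, was 0.19 higher than control in each treated array. Cd151, a tetraspanin gene, differed by -0.14 in each, and the RNA polymerase subunit gene Polr2l by 0.59 under astragaloside IV and -0.51 under oxymatrine.

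The genes most like Cracr2b, Stim2 and Stim1 over the 3 arrays were found by the Euclidean distance between levels after each gene's own mean was taken away. Nearest to Cracr2b were Styk1, a kinase-like gene, at a distance of 0.02, D6Ertd527e at 0.04 and Pgm2l1 at 0.05. These had oxymatrine differences of 0.88, 0.86 and 0.92, and their highest levels were 6.70, 7.59 and 7.14. Nearest to Stim2 were Htra4, Slc35c1 and A530064D06Rik, whose astragaloside IV differences were -0.34, -0.36 and -0.34. Nearest to Stim1 were Prrg4, Ndufa9 and Ncoa5, whose oxymatrine differences were -0.21, -0.20 and -0.20. Each profile has only 3 points, so likeness here describes these arrays alone.

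Around the members, 150 other genes of calcium handling in 8 lists were measured and 97 were above background. With astragaloside IV, 53 of the 97 were lower, 21 higher and 23 equal, with a median of -0.02, and 0 were 1.5-fold apart. Of all genes 40.8% were lower, 31.4% higher and 27.7% equal, and 2.13% were 1.5-fold apart. With oxymatrine 46 were lower, 27 higher and 24 equal, with a median of 0, and 3 were 1.5-fold lower, which is 3.09% where 2.01% of all genes were. Between the treated arrays 0 were 1.5-fold apart, beside 2.58% of all genes. The balance of directions depended on the scaling: after median centring 85 of the 97 were lower under astragaloside IV and 84 under oxymatrine, and after lowess centring 52 and 48 were. Median centring moved the median over all genes above background as well, to -0.058 and -0.063. Every exact tie then counted as lower, here and in the lists below. The share of all genes lower after centring was not counted.

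Modulators of STIM and ORAI above background differed by less than 1.5-fold in each comparison. Saraf, which turns STIM1 off again, was at 10.03 in each array, and Stimate, which helps STIM1 to form its contacts, at 5.90 in each. Of 14 modulators above background, 8 were lower, 2 higher and 4 equal under astragaloside IV, with a median of -0.07, while 6 were lower, 4 higher and 4 equal under oxymatrine, with a median of 0. After median centring 13 were lower and 1 higher in each comparison with control, and after lowess centring 9 were lower and 5 higher under astragaloside IV and 7 and 7 under oxymatrine. Septin7, a septin reported to restrain store-operated entry, was at 14.55, 14.48 and 14.57 in control, astragaloside IV and oxymatrine. Pdia3, a disulfide isomerase of the reticulum that acts on STIM1, differed by -0.14 under astragaloside IV and -0.40 under oxymatrine, and Erp44, which restrains an IP3 receptor, by -0.27 and 0. Saraf and Stimate were named after their values had been seen.

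Enzymes that make and remove IP3 had no common direction on the deposited values. Of 13 above background, 4 were lower, 5 higher and 4 equal under astragaloside IV; under oxymatrine 5 were lower, 3 higher and 5 equal, with a median of 0 in both. After median centring 9 were lower and 4 higher under astragaloside IV and 11 and 2 under oxymatrine, whereas after lowess centring 5 were lower and 8 higher and 6 and 7. Plcg2, the phospholipase C of B cells and dendritic cells, was at 11.67 in control, 11.58 under astragaloside IV and 11.67 under oxymatrine. Inpp5d, which encodes the phosphatase SHIP1, was at 12.91, 12.91 and 12.85. Plcl1, a phospholipase C-like protein without catalytic activity, was 1.5-fold lower under oxymatrine, by a difference of -0.61, and differed by -0.47 under astragaloside IV. Its relative Plcl2 differed by -0.43 under oxymatrine and 0.05 under astragaloside IV.

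Calcium pumps and exchangers showed no 1.5-fold difference among the 8 above background. Atp2a2, the pump SERCA2 that refills the reticulum, was at 12.50 in control, 12.48 under astragaloside IV and 12.51 under oxymatrine. Atp2b1, a plasma membrane pump, was at 11.75, 11.75 and 11.77. The mitochondrial exchanger gene Slc8b1 differed by -0.38 under astragaloside IV and 0.14 under oxymatrine, and was 0.52 higher in oxymatrine than in astragaloside IV. Slc8a1, the plasma membrane sodium-calcium exchanger, differed from control by -0.22 and -0.30. The list median was -0.03 under astragaloside IV and 0.0048 under oxymatrine.

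Of 12 calcium-binding proteins and channels of the reticulum above background, 7 were lower, 0 higher and 5 equal in each comparison with control, on the deposited values. The medians were -0.02 under astragaloside IV and -0.08 under oxymatrine. These directions depended on the scaling: after lowess centring 6 were higher under astragaloside IV and 5 under oxymatrine, and after quantile normalisation 3 and 4 were. Calr, the buffer calreticulin, was at 16.98, 16.98 and 16.88 in control, astragaloside IV and oxymatrine, and the chaperone gene Hspa5 at 16.85, 16.84 and 16.70. Calu, which encodes calumenin, differed by -0.44 with both compounds. Tmem38a, a potassium channel that balances calcium release, was at 5.44 in control and 5.23 in each treated array, the latter below background. None of the 12 was 1.5-fold apart in either comparison.

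In mitochondria, Smdt1, a subunit of the calcium uniporter, was at 15.49, 15.49 and 15.55 in control, astragaloside IV and oxymatrine. Letm1, an inner membrane ion exchanger gene, was 0.57 higher under astragaloside IV and 0.03 higher under oxymatrine. Vdac2, an outer membrane channel that passes calcium, differed by -0.08 and 0.13. Of the 8 above background, 5 were lower, 1 higher and 2 equal under astragaloside IV; under oxymatrine 4 were lower, 3 higher and 1 equal. The oxymatrine balance turned with the scaling, to 2 lower and 6 higher after lowess centring, 3 and 5 after quantile normalisation, and 6 and 2 after median centring.

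Downstream of calcium entry, 14 of 23 calmodulin, calcineurin and NFAT genes above background were lower in each comparison with control on the deposited values. With astragaloside IV 6 were higher and the median was -0.07, and under oxymatrine 7 were higher and the median was -0.11. Over the other scalings 13 to 21 were lower under astragaloside IV and 14 to 19 under oxymatrine. Calm2 and Calm3, which encode the same calmodulin protein, differed by -0.12 and 0.02 under astragaloside IV and by -0.07 and 0.02 under oxymatrine. Rcan1, an inhibitor of calcineurin and a target of NFAT, was at 8.37 in control, 7.97 under astragaloside IV and 7.97 under oxymatrine. Control was thus the highest of the 3, with a difference of -0.40 and -0.41.

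Dyrk2, a kinase that can phosphorylate NFAT for export from the nucleus, was at 9.15 in control, 8.64 under astragaloside IV and 8.55 under oxymatrine. It passed the 1.5-fold threshold under oxymatrine, by a difference of -0.60, and missed it under astragaloside IV at -0.51. The NFAT genes are given for completeness, named after their values had been seen. Nfatc1 differed by -0.13 under astragaloside IV and -0.30 under oxymatrine, Nfatc2 by -0.07 and -0.23, and Nfatc3 by 0.01 and -0.12.

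Among 16 other calcium channel genes above background, Tpcn1, an endolysosomal channel opened by NAADP or lipid signals, was lower under oxymatrine. It was at 9.48 in control, 9.29 under astragaloside IV and 8.74 under oxymatrine, a difference of -0.20 and -0.75 from control. Mcoln2, another endolysosomal channel, was 0.10 and 0.47 higher, at levels between 5.85 and 6.31. Trpm7, a channel fused to a kinase, was 0.18 and 0.12 higher, and Mcoln1 differed by -0.15 in both. The list median was -0.0033 under astragaloside IV and 0 under oxymatrine. Of 34 channel genes measured, 18 were below background, among them all 5 of the measured TRPC genes, which have been proposed as partners of STIM1.

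Of the potassium channels that keep the membrane potential during calcium entry, 3 of 5 were above background. Kcnn4, a channel opened by calcium itself, was at 10.14, 10.18 and 10.20 in control, astragaloside IV and oxymatrine. Kcnk6 was at 12.65, 12.40 and 12.28, a difference of -0.24 and -0.37.

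**Figure D4:**
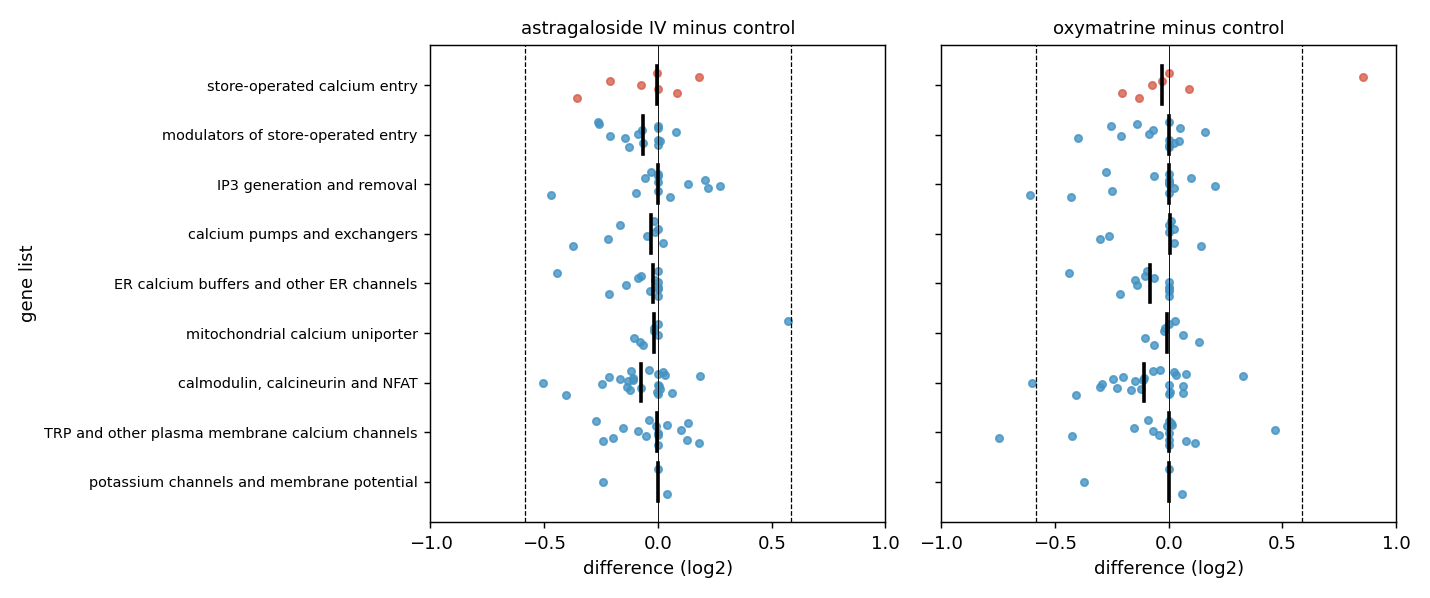
Log2 difference from control (horizontal axis) for each gene above background in 9 lists (vertical axis), under astragaloside IV on the left and oxymatrine on the right; each point is a gene, black bars are list medians and dashed lines mark 1.5-fold. Cracr2b at 0.85 is the only gene beyond the upper line in either panel, and Plcl1, Dyrk2 and Tpcn1 lie beyond the lower line under oxymatrine.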

How the data were processed

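RNA of 3 samples was measured on 1 whole-transcript array each. The deposited values are log2 expression levels made by the authors with RMA, per the submitters' processing notes. RMA combines background correction, quantile normalisation and median polish, and the last leaves exact ties between arrays. Its software and version are not stated in the material used, and the scale was taken as log2 because the values lie between 1.78 and 19.67. Medians over all 28846 probe sets were 5.68, 5.74 and 5.75 in control, astragaloside IV and oxymatrine. Probe sets were named through the platform annotation of 2019, where 19572 had a gene symbol; for 55 genes with several probe sets the brightest was used.

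Comparisons are differences of log2 values. Nothing was tested, since each group had 1 array, and the number of arrays limits the precision. The background level, level bins, thresholds, pathway lists and members were chosen with earlier results of these data known. Named genes are all members, up to 4 genes of each list (the 2 brightest and the 2 farthest from control), list genes at 1.5-fold and the 3 nearest profiles for each of 3 members; genes named outside this rule are marked. A listed symbol that is no current symbol was matched through a synonym. Alternatives are in the closing section. The code was also run on simulated data with planted changes larger than that of any member, which checks the code and not these results. Tools were matplotlib 3.10.9, statsmodels 0.14.6, scipy 1.17.1, pandas 2.3.3 and numpy 2.4.6 under Python 3.11.15.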

Additional observations from a re-analysis of the deposited data

How the results depend on the processing

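No paired analysis was possible because each group had 1 array, and no replicate could be left out. At a threshold of 2-fold, 0 members were apart with oxymatrine or between the treated arrays, in place of 1. At 1.5-fold the count was 1 under all other settings tried in both comparisons, and 0 with astragaloside IV. The scalings moved the member differences too little to change these counts, so the counts are no check of Cracr2b. Each array was centred on its median over all 28846 probe sets, controls included. Over genes alone the medians were 5.75, 5.75 and 5.78 in control, astragaloside IV and oxymatrine. Centring on all probe sets shifts every difference from control by -0.058 for astragaloside IV and -0.063 for oxymatrine. The member median was then -0.061 with astragaloside IV and -0.092 with oxymatrine; it was -0.056 with astragaloside IV after quantile normalisation, and the member mean was -0.054 with astragaloside IV and 0.072 with oxymatrine, above 0 because of Cracr2b. After centring, list medians with astragaloside IV and oxymatrine in turn were -0.12 and -0.063 for modulators, -0.058 and -0.063 for IP3 enzymes, -0.089 and -0.059 for pumps and exchangers, -0.080 and -0.14 for the reticulum, -0.076 and -0.072 for mitochondria, -0.13 and -0.17 for calmodulin, calcineurin and NFAT, -0.061 and -0.063 for other channels, and -0.058 and -0.063 for potassium channels. With no level filter, the IP3 enzyme median between the treated arrays was -0.062, in place of -0.13, and the calmodulin, calcineurin and NFAT medians were -0.023 with astragaloside IV and -0.054 with oxymatrine; with the 99th percentile as background, the pump and exchanger median with astragaloside IV was -0.092. Over all genes above background, 90 were 1.5-fold higher and 137 lower with astragaloside IV, and 65 and 193 after centring; with oxymatrine 139 were higher and 214 lower, and 92 and 312 after centring. Signal near background limits what Orai2 and Cracr2a can show.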
